A study of Mus musculus with 10 samples.

Results

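Circadian clock genes were followed in mouse microglia that received an EZH2 inhibitor, with or without a bacterial stimulus. The 10 genes are Arntl, Clock, Per1, Per2, Per3, Cry1, Cry2, Nr1d1, Nr1d2 and Dbp. They were chosen by symbol and are 10 of the 24411 gene rows in the deposited count tables, and each of them had its own row in every library. RNA was sequenced from 10 libraries in 4 groups. Primary microglia with EPZ-6438 and LPS gave 3 libraries and primary microglia with EPZ-6438 alone gave 3. BV2 cells with EPZ-6438 and LPS gave 2 libraries and BV2 cells with EPZ-6438 alone gave 2. EPZ-6438 blocks EZH2, the enzyme that methylates histone H3 at lysine 27, and was given at 10 uM. LPS (lipopolysaccharide) is a bacterial cell wall component sensed by Toll-like receptor 4, and was given at 10 ng/ml; the treatments lasted 4 h. Every group therefore carried the inhibitor, cells without it were not analysed here, and no value below measures what the inhibitor does.

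Primary microglia were shaken off mixed glial cultures made from whole brains of 3-day-old ICR mice. The brains of 12 mice were pooled, and over 92% of the shaken-off cells carried the myeloid surface protein CD11b, per the labels' protocols. The BV2 line is immortalised mouse microglia, so its libraries describe 1 line. The labels do not tie replicates to separate cultures. The p-values therefore cover the spread among these libraries alone, and that spread may be technical. The time of day of collection and any synchronisation of the cultures are not given in the sources used here. A shift in the phase of the clock and a change in the mean level of its genes cannot be told apart in samples from a single time.

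The mammalian clock is a loop of transcription and repression that runs in nearly every cell, microglia included. CLOCK and BMAL1, the product of Arntl, bind DNA as a pair at E-boxes and switch on the Per and Cry genes, whose proteins return to the nucleus and block the pair. The same pair switches on Nr1d1 and Nr1d2, whose REV-ERB proteins repress Arntl through ROR elements, and Dbp, a factor that carries the rhythm to genes with D-boxes. Per1 is also known as an early response gene that CREB and the glucocorticoid receptor induce directly.

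The promoters show which of these elements lie close to the start sites of the members that carry the results below. RefSeq promoter windows on GRCm38.p6, each 250 bases before to 50 bases after a start site, were found for 9 of the 10 genes, 13 windows in all; Per2 had no entry. Searched on both strands were the E-box CACGTG, the D-boxes TTATGTAA and TTACGTAA, the ROR element cores TAGGTCA and TGGGTCA, and the cyclic AMP response element TGACGTCA. An E-box was found in 2 of the 13 windows, 1 of Per1 and 1 of Cry1, and in 7.15% of the 32851 windows of the whole table. The D-box was found in 1 of the 13 windows, that of Per3, with 2 copies, and in 1.06% of all windows. The ROR core was found in 1 of the 13, a window of Arntl, starting at base 31 after the start site, and in 6.45% of all windows. The cyclic AMP response element was in none of the 13 windows and in 1.79% of all. A match describes letters only, and its absence says that these letters are not in this window. The 3 windows with E-boxes or D-boxes are shown 5′ to 3′ in the direction of the gene, with the matched element in capitals.
Per1, chr11:69098699-69098998, plus strand, E-box starting 166 bases before the start site: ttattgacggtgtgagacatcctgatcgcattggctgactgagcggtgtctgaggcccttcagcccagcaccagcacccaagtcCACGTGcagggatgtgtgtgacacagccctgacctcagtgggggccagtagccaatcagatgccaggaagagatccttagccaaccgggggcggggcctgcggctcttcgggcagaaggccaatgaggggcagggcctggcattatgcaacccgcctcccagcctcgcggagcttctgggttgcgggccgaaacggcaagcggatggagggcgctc
Cry1, chr10:85185005-85185304, minus strand, E-box starting 60 bases before the start site: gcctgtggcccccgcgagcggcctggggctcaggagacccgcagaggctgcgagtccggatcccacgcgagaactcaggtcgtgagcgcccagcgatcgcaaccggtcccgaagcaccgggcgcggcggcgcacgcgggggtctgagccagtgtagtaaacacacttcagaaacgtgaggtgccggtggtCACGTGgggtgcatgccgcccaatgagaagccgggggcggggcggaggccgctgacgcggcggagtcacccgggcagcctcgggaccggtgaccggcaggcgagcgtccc
Per3, chr4:151044616-151044915, minus strand, D-boxes starting 205 and 158 bases before the start site: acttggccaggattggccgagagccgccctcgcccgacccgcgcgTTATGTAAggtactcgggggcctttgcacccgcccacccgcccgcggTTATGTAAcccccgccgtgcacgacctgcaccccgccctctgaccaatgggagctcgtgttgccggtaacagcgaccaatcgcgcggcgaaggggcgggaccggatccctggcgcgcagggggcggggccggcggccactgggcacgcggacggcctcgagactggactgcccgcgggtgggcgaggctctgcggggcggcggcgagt

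Libraries held 2750988 to 3684012 gene counts, of which Rn45s, the ribosomal RNA precursor, took 15.7% to 51.7%. Levels are CPM (the usual depth-scaled count) on TMM-scaled library sizes, and a count of 0 allows up to 3 counts, or 0.845 to 1.23 CPM. All 12 microglia and macrophage markers were detected in primary libraries. BV2 libraries had 11 of the 12, with Sall1, a defining factor of microglia, at 0 in all 4. Tmem119 went the other way. It had 9.86 to 11.1 CPM in BV2 cells with LPS and 13.2 to 18.1 CPM without. In primary microglia it had 1.175 to 2.55 CPM with LPS and 2.25 to 2.82 CPM without, near the limit for a count of 0. Of the 12, 8 were called higher in primary microglia than in BV2 cells with LPS and 1 lower. Without LPS 9 were higher and 1 lower. The 8 astrocyte markers summed to 866 to 1530 CPM in primary microglia with LPS and 852 to 1424 CPM without, overlapping ranges, while in BV2 cells they summed to 0 CPM with LPS and at most 0.312 CPM without. Oligodendrocyte lineage markers summed to 128 to 161 CPM in primary microglia with LPS and 172 to 180 CPM without. Neuron markers there summed to 54.5 to 61.5 CPM with LPS and 66.3 to 67.5 CPM without. These 2 small sums were lower with LPS in each library. Fibroblast markers in primary microglia summed to 82.3 to 137.8 CPM with LPS and 105.6 to 323.4 CPM without, overlapping ranges. Their median log2 fold change with LPS was -0.593, and 0 of the 6 were called. Of the 7 astrocyte markers tested with LPS in primary microglia, 1 rose, 2 fell and 4 were not called, where 39.2% of all tested genes were called. The part of the astrocyte, oligodendrocyte, neuron and fibroblast markers in the clock gene values was not tested. In bulk RNA, fewer cells of a type and less RNA per cell cannot be told apart. Replicate 1 of primary microglia with LPS stood apart from replicates 2 and 3. Its Rn45s share was 43.75%, against 15.73% and 15.99% in the other two, and results that rest on it are given with and without it. Primary libraries without LPS had 50.3%, 51.73% and 40.95%. The Rn45s share thus moved with LPS in replicates 2 and 3, while replicate 1 lay within the range of the libraries without LPS.

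Most of the clock genes were lower with LPS in primary microglia. Of the 10 genes, 7 fell, 2 were tested and not called (Arntl and Cry1) and 1 had too few counts for the test (Nr1d1). Among all 10664 genes tested, 39.2% were called, 17.8% lower and 21.4% higher. Dbp, Per1, Per2 and Cry2 fell the most, to between 3.15-fold and 5.89-fold lower levels, followed by Per3, Clock and Nr1d2. All 7 were lower in each LPS library than in each library without LPS, and 49.0% of all tested genes had groups that did not overlap in one direction or the other. No member rose by edgeR, none rose at an unadjusted p under 0.05 (0 genes), and none rose by DESeq2 (0 genes). The median log2 fold change was -1.27 over the 9 tested members and -0.03 over all tested genes. Dbp, Per1, Per2 and Cry2 each had an LPS library under 10 counts and passed the filter through the libraries without LPS, so these counts and the median describe the list and support nothing further. Without replicate 1 of the LPS group, 8 of the 10 members and 48.3% of all tested genes were called. With the Rn45s share as a covariate, an alternative chosen after seeing the data, 5 members (Per1, Per2, Per3, Nr1d2 and Dbp) and 31.7% of all tested genes were called.

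**Figure D1:**
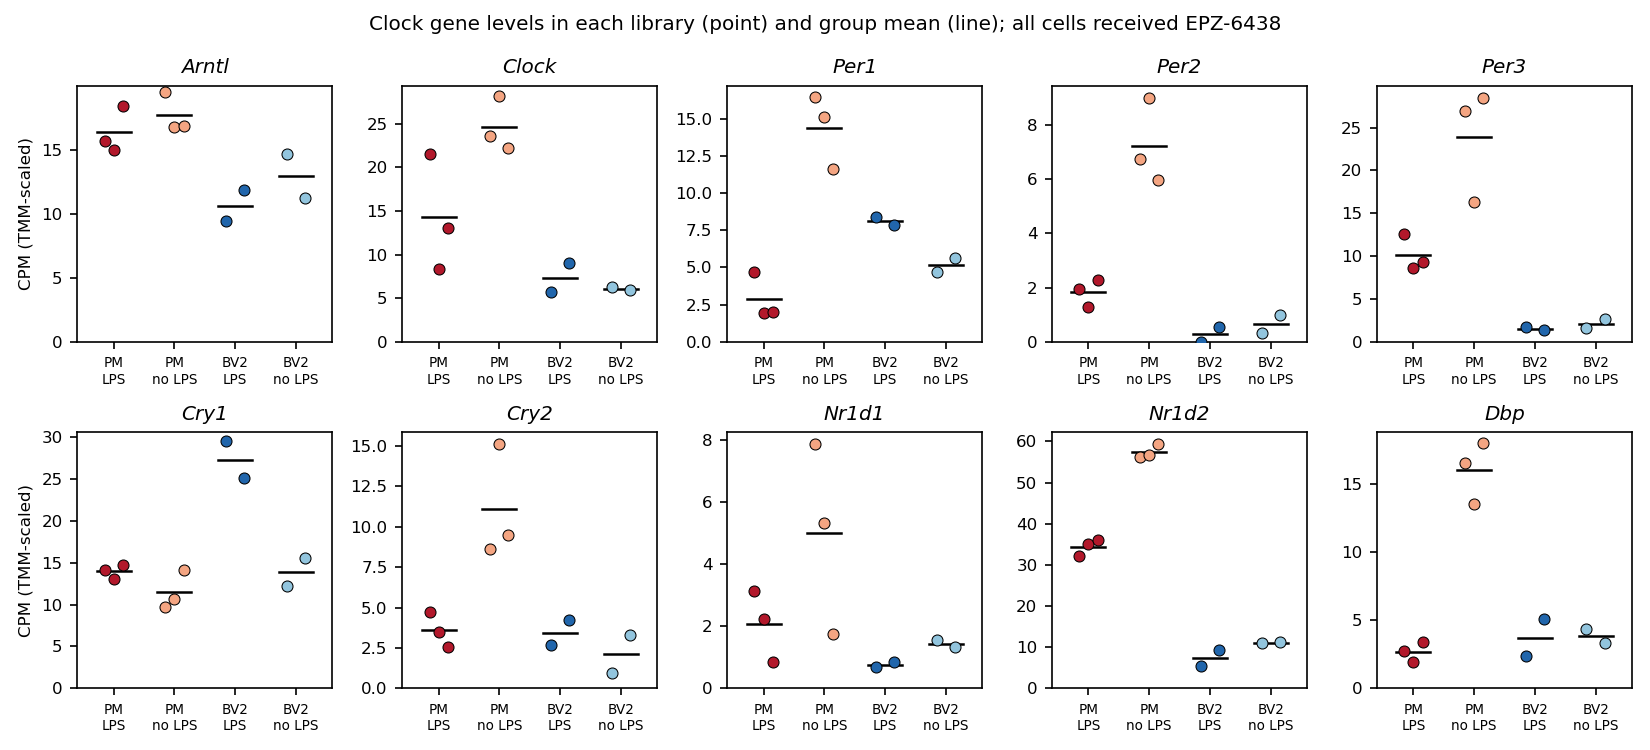
Levels of the 10 clock genes in each library, as CPM on TMM-scaled library sizes on linear axes that start at 0; each point is a library, the line is the group mean, and groups run from primary microglia (PM) with and without LPS to BV2 cells with and without LPS. In primary microglia the Per1 points sit at 1.91 to 4.70 CPM with LPS and 11.6 to 16.5 CPM without.

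Among the activators, Arntl (chromosome 7, 113178471 to 113314126 on GRCm38) was called in neither cell type. It stood at 15.7, 14.99 and 18.4 CPM in primary microglia with LPS, against 19.5, 16.8 and 16.9 CPM without. The libraries of both groups overlapped, and the log2 fold change was -0.12 ± 0.20 (SE, adjusted p = 0.668), with a 95% interval of -0.54 to 0.30. In BV2 cells Arntl had 9.40 and 11.8 CPM with LPS and 14.7 and 11.2 CPM without, again overlapping. Its BV2 log2 fold change was -0.24 ± 0.27 (adjusted p = 0.807), with an interval of -0.84 to 0.35.

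Clock (chromosome 5, 76209868 to 76305603), the partner of BMAL1, fell in primary microglia with the least secure call of the 7. Its levels were 21.6, 8.29 and 13.0 CPM with LPS, against 23.6, 28.2 and 22.2 CPM without. The groups did not overlap, though replicate 1 with LPS lay just under the nearest library without LPS. The log2 fold change was -0.82 ± 0.27 (adjusted p = 0.0277), a 1.77-fold lower level. Without replicate 1 of the LPS group it was -1.19 (adjusted p = 9.66e-07), and without replicate 2 of that group it was -0.54 (adjusted p = 0.10). The call was also lost without replicate 3 of the LPS group (adjusted p = 0.117), without replicates 1, 2 or 3 of the group lacking LPS (0.0776, 0.122 and 0.0601) and by DESeq2 (0.0626). Clock has 9.93 kb of exon, the longest of the 10 genes, and the libraries differed in how level followed exon length. The log2 level rose per doubling of length by 0.309, 0.108 and 0.144 in replicates 1, 2 and 3 with LPS and by 0.395, 0.389 and 0.307 without LPS. With that slope removed Clock's log2 fold change was -0.51 (adjusted p = 0.0755), and with the Rn45s share as a covariate it was -0.11 (adjusted p = 0.798); both alternatives were chosen after seeing the data. In BV2 cells Clock had 5.71 and 9.02 CPM with LPS and 6.24 and 5.95 CPM without, which overlapped. The BV2 log2 fold change was 0.33 ± 0.35 (adjusted p = 0.794, interval -0.43 to 1.08).

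The Period genes encode the repressors whose build-up and decay set the length of the cycle. Per1 (chromosome 11, 69095108 to 69109965), whose E-box window is printed above, had 4.70, 1.91 and 1.99 CPM in primary microglia with LPS, against 16.5, 15.1 and 11.6 CPM without. The highest LPS library lay well under the lowest library without LPS. Per1 averaged 2.87 ± 1.59 CPM with LPS and 14.4 ± 2.51 CPM without (SD, n = 3 each), a log2 fold change of -2.39 ± 0.33 (adjusted p = 1.04e-05). With the Rn45s share as a covariate it was -1.46 (adjusted p = 0.00478). In BV2 cells Per1 had 8.39 and 7.89 CPM with LPS, against 4.68 and 5.62 CPM without. Here both LPS libraries were the higher ones, but the log2 fold change of 0.69 ± 0.33 was not called (adjusted p = 0.378, interval -0.03 to 1.41).

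Per2 (chromosome 1, 91415977 to 91459351) had 1.96, 1.28 and 2.27 CPM in primary microglia with LPS, against 6.74, 8.99 and 5.98 CPM without. These levels rest on 17 counts in all with LPS and 57 without, and the groups did not overlap. The log2 fold change was -1.95 ± 0.38 (adjusted p = 0.000392), a 3.86-fold lower level. In BV2 cells Per2 was close to the detection limit. It had 0 and 2 counts with LPS and 1 and 3 counts without, so it was not tested there, and the ratio of 0.477 had a 95% counting interval of 0.0432 to 3.33.

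Per3 (chromosome 4, 150997018 to 151044707), whose window holds a pair of D-boxes, had 12.5, 8.61 and 9.36 CPM in primary microglia with LPS, against 27.0, 16.4 and 28.5 CPM without. Replicate 2 without LPS was the lowest of its group, and the groups still did not overlap. Per3 fell by 1.27 ± 0.25 on the log2 scale (SE, adjusted p = 0.00037). In BV2 cells it had 1.68 and 1.41 CPM with LPS and 1.56 and 2.64 CPM without, 10 counts against 13. The groups overlapped, Per3 was not tested there, and the ratio of 0.734 had a counting interval of 0.288 to 1.81.

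The Cryptochromes are the partners of the Period proteins and the stronger repressors of CLOCK and BMAL1. Cry1 (chromosome 10, 85131700 to 85185054) was the member with a called rise in BV2 cells. It had 29.5 and 25.1 CPM in BV2 cells with LPS, against 12.2 and 15.5 CPM without. The LPS libraries lay clear of the others, and the log2 fold change was 1.01 ± 0.23 (adjusted p = 0.0228), a 2.01-fold higher level. The call was lost without replicate 1 of the BV2 group lacking LPS (adjusted p = 0.19) and by DESeq2 (adjusted p = 0.136). In primary microglia Cry1 had 14.1, 13.1 and 14.7 CPM with LPS and 9.74, 10.6 and 14.1 CPM without. Replicate 3 without LPS reached the LPS range, and the log2 fold change of 0.27 ± 0.23 was not called (adjusted p = 0.385, interval -0.22 to 0.75).

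Cry2 (chromosome 2, 92403646 to 92434085) went lower in primary microglia, where it had 4.70, 3.51 and 2.55 CPM with LPS, against 8.62, 15.1 and 9.50 CPM without. The groups did not overlap. Cry2 averaged 3.59 ± 1.08 CPM with LPS and 11.1 ± 3.53 CPM without (SD, n = 3 each), and its log2 fold change was -1.65 ± 0.33 (adjusted p = 0.000523). With the Rn45s covariate it was -1.11 and the call was lost (adjusted p = 0.053). In BV2 cells Cry2 had 2.69 and 4.23 CPM with LPS, against 0.936 and 3.31 CPM without. Those libraries overlapped, and the log2 fold change was 0.77 ± 0.58 (adjusted p = 0.648, interval -0.48 to 2.02).

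The REV-ERB genes encode nuclear receptors that bind haem and repress Arntl. Nr1d2 (chromosome 14, 18204056 to 18239106) had the most counts of the 10 genes in primary microglia. It had 32.1, 35.1 and 36.0 CPM with LPS, against 56.2, 56.8 and 59.5 CPM without. The gap between the groups was larger than the range within either, and Nr1d2 fell by 0.75 ± 0.14 on the log2 scale (adjusted p = 0.000201), a 1.68-fold lower level. In BV2 cells it had 5.37 and 9.30 CPM with LPS, against 10.9 and 11.2 CPM without. Both LPS libraries were the lower ones, but the log2 fold change of -0.53 ± 0.32 was not called (adjusted p = 0.544, interval -1.23 to 0.16).

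Nr1d1 (chromosome 11, 98767932 to 98775377) had few counts throughout. In primary microglia it had 3.13, 2.23 and 0.851 CPM with LPS and 7.87, 5.32 and 1.76 CPM without, 18 counts against 39. Replicate 3 was the lowest of each group and the groups overlapped. The gene did not pass the filter, and the ratio of 0.399 had a counting interval of 0.215 to 0.713. Whether it was called depended on the fit. It was called without the filter (log2 fold change -1.28, adjusted p = 0.0183) and in the fit of all 4 groups (-1.30, 0.0425), but not by DESeq2 (-1.26, 0.194) or on unstranded counts (-0.79, 0.111). Single libraries decided it as well. Nr1d1 was called without replicate 1 of the LPS group (-1.69, 0.00336) or replicate 3 of the group lacking LPS (-1.75, 0.0112), but not without replicate 2 (-1.40, 0.13) or replicate 3 (-0.89, 0.27) of the LPS group. In BV2 cells Nr1d1 had 0.671 and 0.845 CPM with LPS and 1.56 and 1.32 CPM without, and the ratio of 0.53 had an interval of 0.14 to 1.76. Nr1d1 shares 263 exon bases with Thra, a thyroid hormone receptor gene on the opposite strand, and more reads lay on that strand (84 over all libraries) than on its own (71).

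Dbp (chromosome 7, 45705100 to 45710203), the output factor that binds D-boxes, had the largest fall of the 9 members tested in primary microglia. It had 2.74, 1.91 and 3.40 CPM with LPS, against 16.5, 13.49 and 17.95 CPM without. The groups lay far apart, at 2.69 ± 0.75 CPM with LPS and 15.97 ± 2.27 CPM without (SD, n = 3 each). The log2 fold change was -2.56 ± 0.30 (adjusted p = 9.4e-07), a 5.89-fold lower level. In BV2 cells Dbp had 2.35 and 5.07 CPM with LPS and 4.37 and 3.31 CPM without. The LPS libraries lay on either side of the others, and the log2 fold change was 0.02 ± 0.46 (adjusted p = 0.992), with a wide interval of -0.98 to 1.02.

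Without replicate 1 of the primary LPS group, each of the 7 falls was still called. Clock stood at -1.19 and Per1 at -2.86 on the log2 scale, Per2 at -1.98, Per3 at -1.43, Cry2 at -1.86, Nr1d2 at -0.70 and Dbp at -2.56.

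In BV2 cells 1 of the 10 genes was called. Cry1 rose, no member fell, 6 were tested and not called, and 3 (Per2, Per3 and Nr1d1) had too few counts for the test. Among the 9321 genes tested there, 5.20% were called, 3.69% higher and 1.51% lower. No member fell by edgeR, at an unadjusted p under 0.05 (0 genes) or by DESeq2 (0 genes). Of the 10 members, 4 had groups that did not overlap, 2 higher with LPS (Per1 and Cry1) and 2 lower (Nr1d1 and Nr1d2), a share close to the 42.1% of all tested genes. The median log2 fold change was 0.33 over the 7 tested members and -0.01 over all tested genes. The 95% intervals in BV2 cells held the primary microglia value for Arntl and Nr1d2, and not for Clock, Per1, Cry1, Cry2 or Dbp; the difference itself was tested separately.

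**Figure D2:**
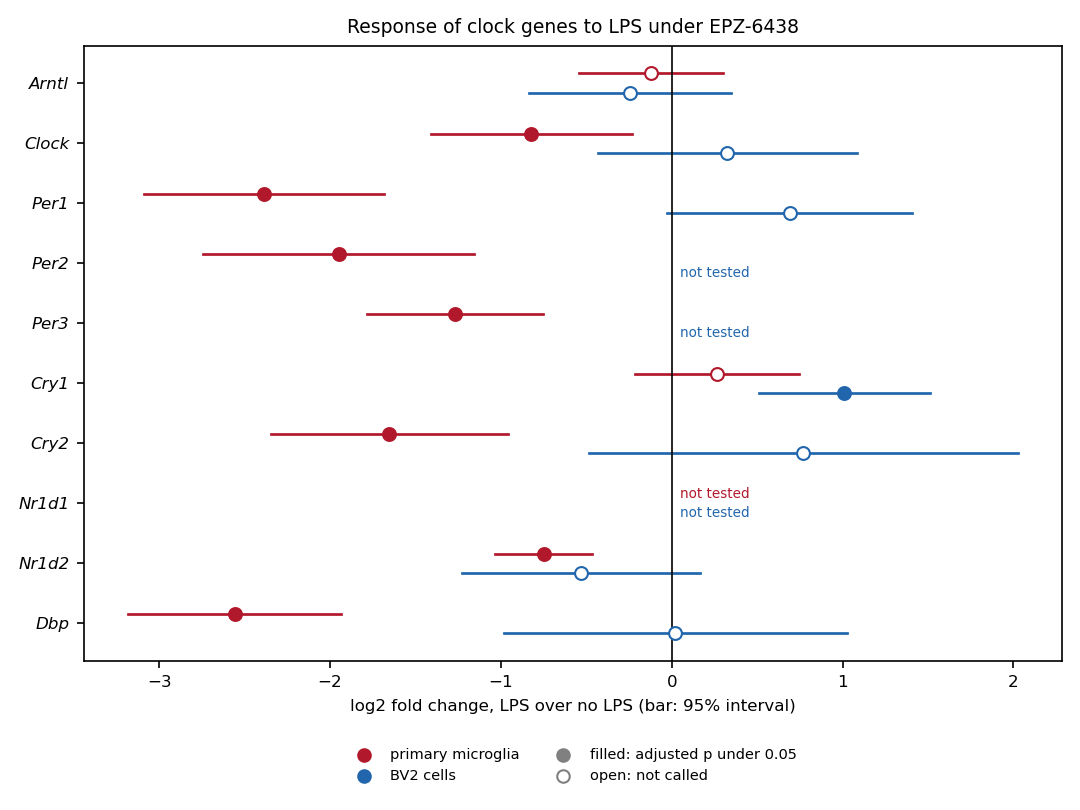
Log2 fold change of each clock gene with LPS over without LPS, in primary microglia and BV2 cells, with 95% intervals; filled points were called at an adjusted p under 0.05, and genes with too few counts are marked as not tested. Per1 sits at -2.39 in primary microglia and 0.69 in BV2 cells, with intervals that do not meet.

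The responses of the cells differed for 3 of the 10 genes, and 12.2% of all 11626 genes tested for that difference were called. The difference is the log2 response in primary microglia minus that in BV2 cells, from a fit of all 10 libraries. It was largest for Per1, at -3.03 ± 0.50 (SE, adjusted p = 5.42e-05), which had the same sign and call under each of 16 alternatives. For Dbp the difference was -2.53 ± 0.56 (adjusted p = 0.00204), and the call was lost on unstranded counts (0.136) and without replicate 2 of BV2 cells with LPS (0.126). For Cry2 it was -2.38 ± 0.67 (adjusted p = 0.0156), and the call was lost by DESeq2 (0.0546), without replicate 1 of BV2 cells lacking LPS (0.149) and without replicate 2 of BV2 cells with LPS (0.155). Cry2 had few BV2 counts, 8 and 15 with LPS and 3 and 10 without. Replicate 1 without LPS was at the limit for a count of 0. The other 7 differences were not called. Clock's was -1.10 ± 0.48 (adjusted p = 0.161) and was called without replicate 1 of primary microglia with LPS (0.00523). Cry1's was -0.70 ± 0.34 (adjusted p = 0.218), so its rise in BV2 cells was not shown to differ from its response in primary microglia. For Per2 the interval ran from -4.08 to 2.15, too wide to compare the cells.

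The order of the levels was not the same in the 4 groups. Levels between genes were compared as CPM per kb of exon. Dividing by length treats all libraries alike, but level followed length differently in the cells. The log2 level changed per doubling of length by 0.108 to 0.395 in primary libraries and by -0.352 to -0.287 in BV2 libraries. The part of that slope in the order was not tested. Nr1d2 ranked the highest in both primary groups, at 7.38 ± 0.44 CPM per kb with LPS and 12.3 ± 0.37 CPM per kb without (SD, n = 3 each), clear of the next gene each time. Dbp was the fifth with LPS, at 1.46 CPM per kb and within the range of its neighbours Per3 and Clock. Without LPS it was second, at 8.70 CPM per kb and clear of both neighbours. Arntl ranked second with LPS, at 5.30 CPM per kb, and overlapped Cry1 at 4.62 CPM per kb, while from Per3 down to Per2 each neighbour overlapped the next. In primary microglia without LPS, Arntl was the third at 5.73 CPM per kb, Per3 and Cry1 overlapped, and the genes from Per1 down to Per2 overlapped their neighbours.

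In BV2 cells Cry1 ranked first. It had 9.02 ± 1.04 CPM per kb with LPS, more than Arntl at 3.44 CPM per kb, and 4.58 ± 0.79 CPM per kb without LPS, where it overlapped Arntl at 4.19 CPM per kb (SD, n = 2 each). Nr1d2 and Dbp overlapped in both BV2 groups, at 1.57 and 2.02 CPM per kb with LPS and 2.38 and 2.09 CPM per kb without. Per2 ranked the lowest in all 4 groups, from 0.0483 CPM per kb in BV2 cells with LPS to 1.24 CPM per kb in primary microglia without it.

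**Figure D3:**
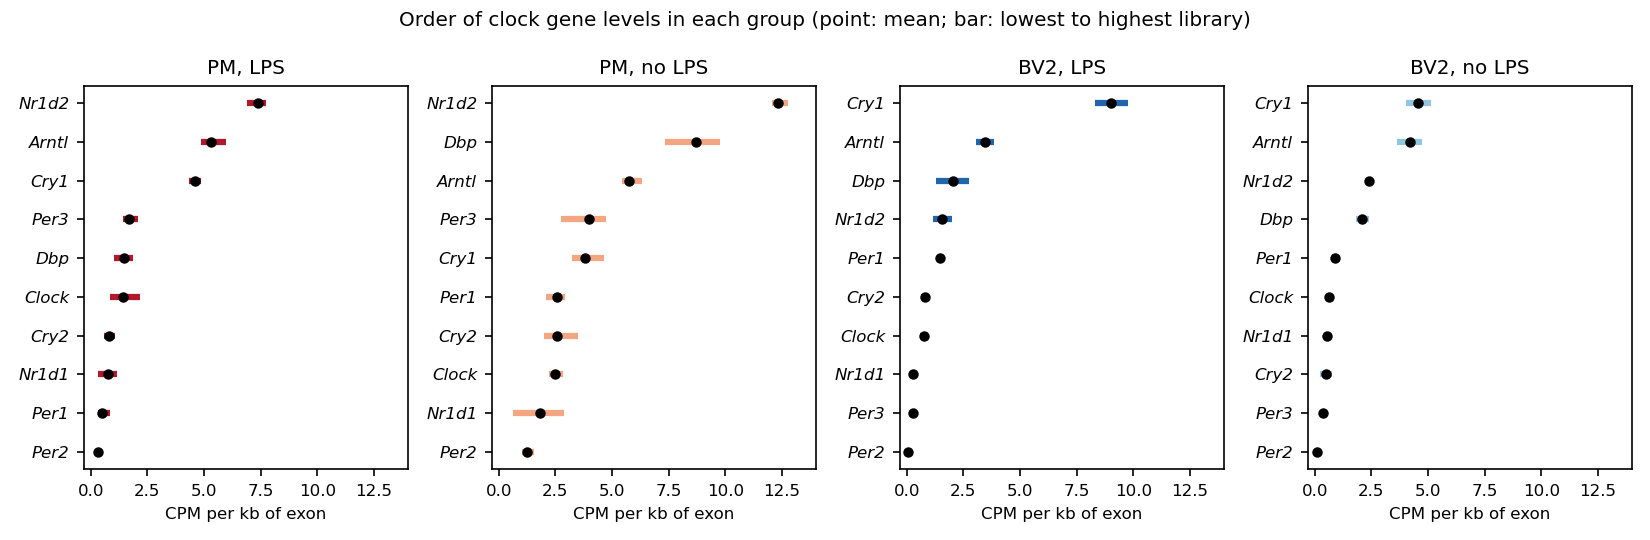
Clock gene levels in each group in CPM per kb of exon, ordered from highest at the top; points are group means and bars run from the lowest to the highest library (n = 3 in primary microglia, PM, and n = 2 in BV2 cells). Nr1d2 leads both primary groups and Cry1 both BV2 groups.

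Primary microglia and BV2 cells were also compared directly. With LPS 7 of the 10 members were called and without LPS 8 were, shares close to the 73.8% and 74.1% of all 11626 genes called in those conditions. With LPS, 5 members were higher in primary microglia than in BV2 cells (Arntl, Clock, Per2, Per3 and Nr1d2) and 2 were lower (Per1 and Cry1); of all genes, 43.1% were higher and 30.7% lower. Without LPS, 8 of the 10 were higher in primary microglia, against 41.5% of all genes; no member was lower by edgeR, at an unadjusted p under 0.05 (0 genes) or by DESeq2 (0 genes), and 32.5% of all genes were lower. Per2, Per3 and Nr1d1 had under 10 counts in every BV2 library and passed the filter through the primary libraries, so these counts describe the list and support nothing further. Cry2 was low in BV2 cells as well, with 8 and 15 counts with LPS and 3 and 10 without. Astrocyte, oligodendrocyte, neuron and fibroblast markers run with this contrast, since BV2 libraries had them at or near 0. The sum of the 4 endothelial markers ran the other way. With LPS it was 9.01 to 11.6 CPM in primary microglia and 87.1 to 98.4 CPM in BV2 cells. Without LPS it was 8.80 to 17.2 CPM and 100.1 to 128 CPM. Singly these markers were split, as 2 were tested and in both conditions 1 was higher and 1 lower in primary microglia. The part of these markers in the contrast was not tested. The log2 level per doubling of exon length also ran in opposite directions in the cells. It changed by 0.108 to 0.309 in primary microglia and by -0.352 and -0.351 in BV2 cells with LPS. Without LPS it changed by 0.307 to 0.395 and by -0.334 and -0.287. Clock (9.93 kb), Per3 (6.0 kb), Per2 (5.83 kb) and Per1 (5.62 kb) are the longest members. This slope was not removed from the contrast, and its part was not tested.

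Per3 and Nr1d2 were far above BV2 levels under both conditions. Per3's log2 fold change, primary microglia over BV2 cells, was 2.68 ± 0.43 with LPS (adjusted p = 3.3e-06) and 3.50 ± 0.37 without (adjusted p = 3.2e-09). Nr1d2 stood at 2.20 ± 0.23 with LPS (adjusted p = 1.39e-09) and 2.37 ± 0.21 without (adjusted p = 7.79e-11). Both genes had primary libraries entirely above the BV2 libraries. Per2 was higher as well, 17 counts against 2 with LPS and 57 against 4 without. Those ratios were 6.02 (counting interval 1.43 to 53.7) with LPS and 11.2 (4.13 to 42.4) without. The call for Per2 with LPS (log2 fold change 2.44 ± 0.86, adjusted p = 0.0132) was lost by DESeq2 (0.0585) and without replicate 1 of BV2 cells with LPS (0.12), and the value was 5.47 without replicate 2 of that group.

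Per1 changed sides. It was lower in primary microglia than in BV2 cells with LPS, at -1.56 ± 0.38 (SE, adjusted p = 0.000586), and higher without LPS, at 1.48 ± 0.33 (adjusted p = 0.000246). In neither condition did the libraries of the cells overlap. Cry1 was lower in primary microglia with LPS (-0.96 ± 0.22, adjusted p = 0.000357) and not called without (-0.26 ± 0.25, adjusted p = 0.354). Dbp was not called with LPS (-0.48 ± 0.43, adjusted p = 0.316) and higher in primary microglia without (2.05 ± 0.34, adjusted p = 6.27e-06). Cry2 likewise was not called with LPS and higher without, at -0.01 ± 0.45 with LPS (adjusted p = 0.992) and 2.37 ± 0.45 without (adjusted p = 3.15e-05). These fits share libraries with the LPS comparisons above, so the shifts restate the differences of response and add no separate evidence.

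Clock was higher in primary microglia both with LPS (0.91 ± 0.33, adjusted p = 0.0167) and without (2.01 ± 0.33, adjusted p = 8.35e-06). With LPS its libraries overlapped those of BV2 cells, and the call was lost without replicate 1 of primary microglia with LPS (0.48, adjusted p = 0.154) and without replicate 1 of BV2 cells with LPS (adjusted p = 0.165). Arntl differed little, at 0.62 ± 0.25 with LPS (adjusted p = 0.0264) and 0.45 ± 0.24 without (adjusted p = 0.0971). Its call with LPS was lost by DESeq2 (0.0996), with the replicate block (0.087), and without replicate 3 of either primary group (0.0891 with LPS, 0.05 without) or replicate 1 of BV2 cells with LPS (0.172). Nr1d1 was not called with LPS (1.32 ± 0.80, adjusted p = 0.136) and higher without (1.74 ± 0.60, adjusted p = 0.0119). The call with LPS was gained on unstranded counts (0.0228) and with the replicate block (0.0306). The call without LPS was lost by DESeq2 (0.0594) and without replicate 1 or 2 of BV2 cells lacking LPS (0.0563 and 0.0723).

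**Figure D4:**
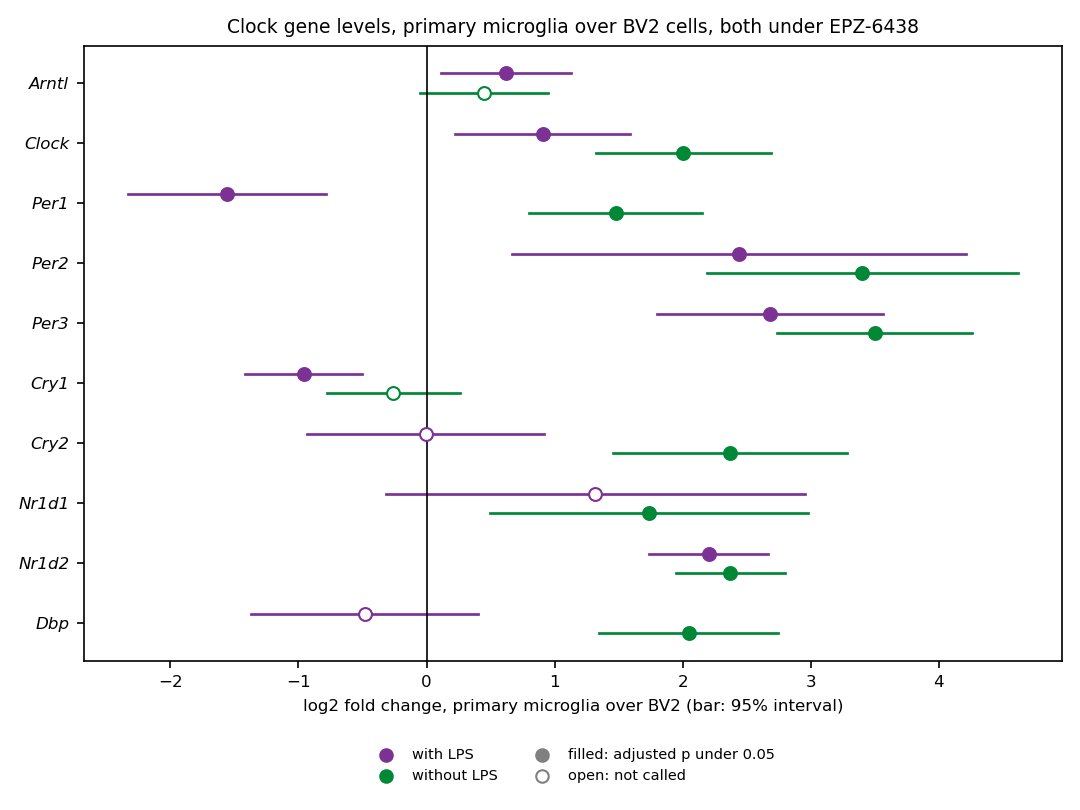
Log2 fold change of each clock gene in primary microglia over BV2 cells, with and without LPS, with 95% intervals; filled points were called at an adjusted p under 0.05. Per1 sits at -1.56 with LPS and 1.48 without, while Per3 and Nr1d2 stay above 2 in both.

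The other genes of the pathway were taken from 3 lists. Partners and paralogs of the clock proteins were called lower or not at all with LPS in primary microglia. Of the 13 listed, 12 were in the tables under the listed symbol and 7 were tested, of which 4 fell and 3 were not called; no gene of the list rose by edgeR, at an unadjusted p under 0.05 (0 genes) or by DESeq2 (0 genes). The list's median log2 fold change was -0.53, against -0.03 over all tested genes, of which 17.8% were called lower and 21.4% higher. Rora, the nuclear receptor that activates Arntl at the elements REV-ERB proteins repress, averaged 7.54 ± 1.62 CPM with LPS and 23.6 ± 2.91 CPM without (SD, n = 3 each) and fell by 1.67 ± 0.23 on the log2 scale (adjusted p = 8.29e-06). Tef, a D-box factor related to Dbp, averaged 24.5 ± 0.86 CPM with LPS and 62.8 ± 2.54 CPM without, at -1.37 ± 0.14 (adjusted p = 1.81e-07). Bhlhe41, which encodes DEC2, an E-box repressor, averaged 42.7 ± 7.58 CPM with LPS and 115 ± 17.5 CPM without, at -1.44 ± 0.15 (adjusted p = 2.64e-07). Its relative Bhlhe40 stood at -0.53 ± 0.15 (adjusted p = 0.00751), a call lost by DESeq2 (0.0639), without replicate 2 of the group lacking LPS (0.0569) and with the Rn45s covariate (-0.34, 0.201).

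In BV2 cells 5 of these genes were tested and 2 fell, where 1.51% of all tested genes fell. The median was -0.91, against -0.01 over all genes. No gene rose by edgeR, at an unadjusted p under 0.05 (0 genes) or by DESeq2 (0 genes). Bhlhe41 had 12.6 ± 1.13 CPM with LPS and 30.4 ± 2.83 CPM without (SD, n = 2 each), at -1.23 ± 0.22 (adjusted p = 0.00473). Tef had 15.1 ± 1.87 CPM with LPS and 29.0 ± 3.13 CPM without, at -0.91 ± 0.22 (adjusted p = 0.0294). The call for Tef was lost by DESeq2 (0.26), without replicate 1 of BV2 cells lacking LPS (0.23) and without replicate 2 of those with LPS (0.055), and each of these left 1 gene of the list called.

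Kinases, ubiquitin ligases and corepressors that act on clock proteins were called in primary microglia at a share near that of all genes. Of 22 listed, 21 were tested, 5 rose, 5 fell and 11 were not called, where 39.2% of all tested genes were called. The median log2 fold change was -0.05, against -0.03 over all genes. Csnk1e, the casein kinase that marks PER proteins for decay, averaged 25.3 ± 1.60 CPM with LPS and 53.9 ± 2.20 CPM without, at -1.10 ± 0.14 (adjusted p = 4.69e-06). Usp2, a deubiquitinating enzyme that acts on clock proteins, averaged 8.47 ± 3.07 CPM with LPS and 21.5 ± 1.86 CPM without, at -1.32 ± 0.25 (adjusted p = 0.000267). Fbxw11, part of a ligase that binds phosphorylated PER, went up to 155 ± 12.8 CPM with LPS, against 87.4 ± 4.62 CPM without (0.82 ± 0.12, adjusted p = 1.64e-05). Ncor1, the corepressor that REV-ERB proteins recruit, averaged 59.2 ± 21.2 CPM with LPS and 95.6 ± 8.85 CPM without, at -0.72 ± 0.21 (adjusted p = 0.0233). Its call was lost without any 1 library of the group lacking LPS (0.0539 to 0.0888), without replicate 3 of the LPS group (0.0941) and with the Rn45s covariate (-0.13, 0.58). The number of called genes in this list was 16 without replicate 1 of the LPS group, 5 without replicate 3 of it or replicate 2 of the group lacking LPS, and 6 with the Rn45s covariate. In BV2 cells 0 of 21 tested were called by edgeR, where 5.20% of all tested genes were, 0 had an unadjusted p under 0.05 and 0 were called by DESeq2.

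Genes that CREB or the glucocorticoid receptor induce, as they do Per1, moved in both directions in primary microglia. Of 10 listed, 8 were tested, 4 fell and 2 rose, where 17.8% of all tested genes fell and 21.4% rose. The list's median was -0.64, against -0.03 over all genes. Sik1 had 29 counts in all with LPS and 127 without, and Tsc22d3 had 62 and 407. Both passed the filter through the libraries without LPS, so the numbers called and the median describe the list and support nothing further. Tsc22d3, which encodes GILZ, a glucocorticoid-induced protein, had the largest fall of this list, to 6.47 ± 2.56 CPM with LPS, against 51.1 ± 1.52 CPM without (-2.94 ± 0.22, adjusted p = 1.77e-09). Sik1, a CREB-induced kinase, averaged 3.22 ± 1.04 CPM with LPS and 15.9 ± 1.51 CPM without (-2.33 ± 0.29, adjusted p = 2.12e-06). Sgk1, a glucocorticoid-induced kinase, averaged 120 ± 17.2 CPM with LPS and 273 ± 3.32 CPM without (-1.20 ± 0.12, adjusted p = 1.31e-07). Crem, a CREB family factor, rose to 17.9 ± 2.05 CPM with LPS, against 9.65 ± 1.77 CPM without (0.87 ± 0.23, adjusted p = 0.00522). The other called genes of the list were Fkbp5, which rose (0.62 ± 0.18, adjusted p = 0.0102), and Klf9, which fell (-0.70 ± 0.25, adjusted p = 0.0339).

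In BV2 cells 7 of these were tested, 1 rose and 1 fell, where 3.69% of all tested genes rose and 1.51% fell. The median was -0.36, against -0.01 over all genes. Tsc22d3 fell there too, with 1.60 ± 1.06 CPM with LPS and 8.14 ± 2.16 CPM without (-2.34 ± 0.48, adjusted p = 0.0122). These levels rest on 10 counts in all with LPS and 51 without. Its lower LPS library, at 0.845 CPM, was at the limit for a count of 0. Tsc22d3 passed the filter through the libraries without LPS, so the numbers called and the median describe the list and support nothing further. Nr4a1, an orphan nuclear receptor of the early response, rose to 18.5 ± 2.29 CPM with LPS, against 8.15 ± 1.71 CPM without (1.21 ± 0.26, adjusted p = 0.0175). The call for Tsc22d3 was lost without replicate 1 of BV2 cells lacking LPS (0.0684), the call for Nr4a1 without replicate 2 of that group (0.127), and both by DESeq2 (0.103 and 0.154).

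**Figure D5:**
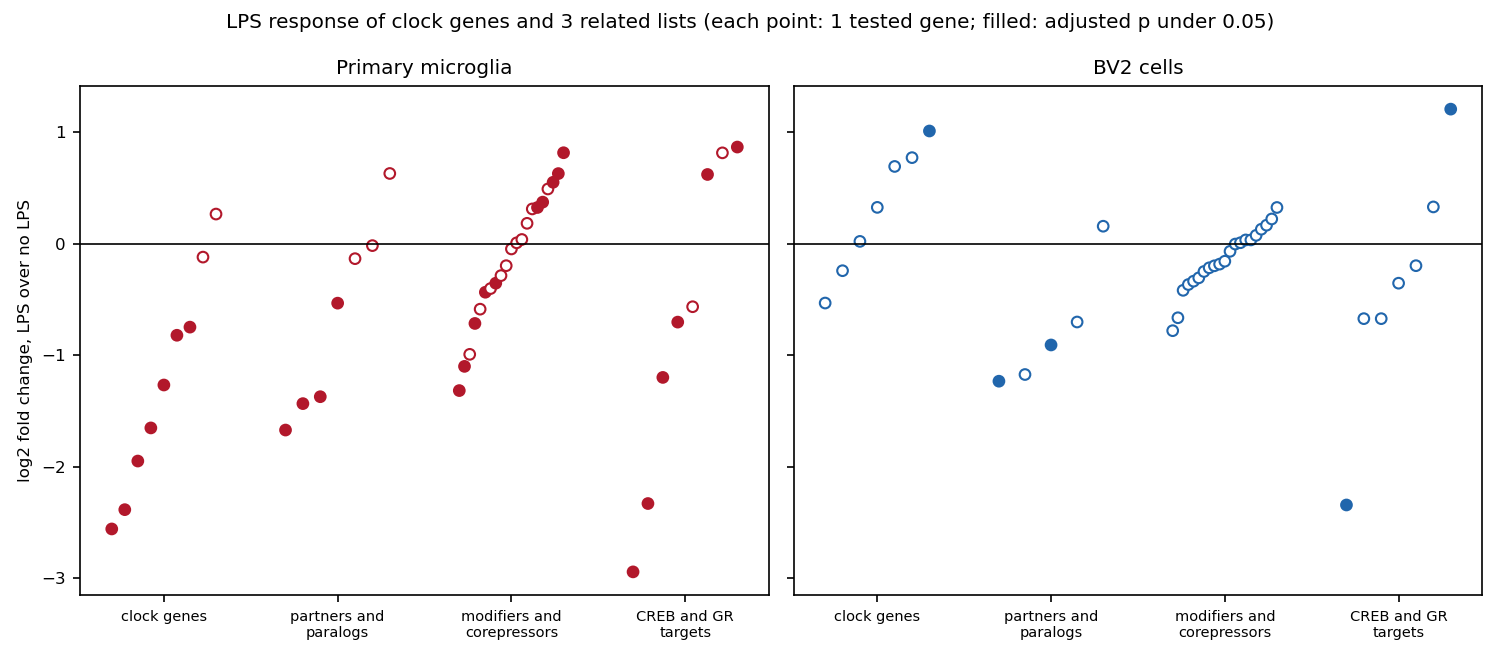
Log2 fold change with LPS over without LPS for the clock genes and 3 related lists, in primary microglia (left) and BV2 cells (right); each point is a tested gene, and filled points were called at an adjusted p under 0.05. In primary microglia 7 clock genes and 4 partners and paralogs lie below 0 as filled points, and in BV2 cells the modifiers hold no filled point.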

How the data were processed

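Each of the 10 libraries has a deposited table of whole-number counts by gene symbol, with an unstranded column and a column for each strand. A directional kit was used after ribosomal RNA removal, per the labels' protocols. CASAVA 1.8.2, Trimmomatic 0.33, STAR 2.5.1, mm10 and DESeq2 are named per the submitters' processing notes, and the gene annotation was not stated in the sources used here. The reverse-strand column was taken, as the other strand held 0.682% to 2.21% of stranded gene reads. Lines naming no gene (70.4% to 79.5% of reads) stayed out.

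The count test was edgeR 4.0.16 (R 4.3.3), its quasi-likelihood F test with TMM scaling, Benjamini-Hochberg adjustment over all tested genes, and filterByExpr at a minimum of 10 counts and a total of 15; a call needed an adjusted p under 0.05. Every adjusted p is from this test unless another is named. LPS responses were fitted within each cell type (6 and 4 libraries), and all other contrasts in a fit of all 10. DESeq2 1.42.0, other scalings, filters and strands, and leaving out each library were alternatives. The scripts were tested on simulated data. Exon lengths came from GENCODE M21 on GRCm38 (95.8% of symbols had one). Counting intervals (95%) and limits from a count of 0 include no error beyond counting.

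Replicates differed beyond sampling noise (lowest chi-square per degree of freedom 1.52), and each library was used once. Deviations of same-numbered primary libraries correlated at 0.181, -0.0775 and 0.194, so the numbers were not taken as pairs; with 2 pairs, BV2 cells could not show any. Members, lists and tests were chosen with earlier results of these data known. All 10 members are named, and from each list at most the 4 called genes with the largest change per LPS comparison. Fkbp5 and Klf9 are named beyond that rule.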

Additional observations from a re-analysis of the deposited data

Results flagged for a closer look

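The LPS response of 3 clock genes differed between primary microglia and BV2 cells by a test of the difference itself. It was -3.03 for Per1, -2.38 for Cry2 and -2.53 for Dbp on the log2 scale, primary microglia minus BV2 cells. Per1 stood at 2.87 CPM with LPS and 14.4 CPM without in primary microglia, and at 8.14 CPM with LPS and 5.15 CPM without in BV2 cells.

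Reads on the strand opposite to a member were outside the counts used above, and 3 members had more of them in a library than a count of 0 allows. Nr1d1 had up to 20 in a library, Clock up to 11 and Dbp up to 4. Over all libraries this came to 84 reads against 71 on the gene's own strand for Nr1d1, 54 against 409 for Clock and 13 against 202 for Dbp. Nr1d1 shares 263 exon bases with Thra and Dbp 539 with Sphk2, each on the opposite strand.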

How the results depend on the processing

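No value of a member changed direction while called under any alternative run. Across alternatives, 126 member values in primary microglia with LPS kept their call or lack of a call and 9 lost the call. The numbers were 81 and 2 in BV2 cells, 150 and 5 for the difference of responses (1 gained), 147 and 9 between cells with LPS (2 gained) and 155 and 3 between cells without LPS. Some values that were not called changed sign, as in BV2 cells for Clock (-0.05 to 0.61) and Dbp (-0.66 to 0.44). By DESeq2 no member was called in BV2 cells (0 genes), and 311 of all genes were, against 485 by edgeR; 83% of these were higher, against 70.9%. The alternative without the low-count filter called 693 genes in BV2 cells out of more genes tested. Leaving out 1 library at a time gave 0 to 1 called members in BV2 cells and 353 to 800 called genes there, the most without BV2 LPS replicate 1. It gave 4 to 7 called members between cells with LPS, the fewest without BV2 LPS replicate 1, and 1 to 4 for the difference of responses, the fewest without BV2 LPS replicate 2. With the replicate block, 7 members were called in primary microglia, 1 in BV2 cells, 3 for the difference, 7 between cells with LPS and 8 without, with 4479, 596, 1685, 8152 and 8200 genes in all; it changed the calls of Arntl and Nr1d1 between cells with LPS and of no other member. Neither other scaling (DESeq2 size factors, Rn45s left out) moved the median of all genes by over 0.1 in any of the 5 comparisons. Depth limits Per2, Per3 and Nr1d1 in BV2 cells most, and the cause of the lost calls was not tested.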

Other observations

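The profiles most like Dbp, Per1 and Nr1d2 over all 10 libraries were sought among 11616 other tested genes, by the root mean square distance of log2 CPM centred on each gene's mean. Nearest to Dbp were Rcbtb2 (0.303), Cd84 (0.312) and Myo1f (0.323), where Dbp itself spanned 2.85 on the log2 scale. Nearest to Per1 were Foxk1 (0.249), Plxdc1 (0.346) and 1700017B05Rik (0.354), where Per1 spanned 2.73. Nearest to Nr1d2 were AF251705 (0.128), Acbd5 (0.152) and Smim14 (0.178), where Nr1d2 spanned 3.32. These distances describe 10 libraries of 4 groups that share depth and composition, and carry no test.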
